A study of Mus musculus with 20 samples.

Results

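The Ikaros family of mouse comprises 5 genes, Ikzf1 (Ikaros), Ikzf2 (Helios), Ikzf3 (Aiolos), Ikzf4 (Eos) and Ikzf5 (Pegasus). They were taken by name, and all 5 were found among the 56239 genes of the count table. Of these, 4 had at least 1 count in any library, and 3 (Ikzf1, Ikzf3 and Ikzf4) reached the minimum for testing, 10 or more counts in 2 or more libraries, which 16601 genes reached.

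RNA was measured in B3 cells, a mouse line that resembles pre-B cells and was derived from a lymphoma. Every library, those at 0 h included, came from B3 cells that had been transduced with a retrovirus carrying IKZF1-ERt2, in which IKZF1 is joined to the estrogen receptor domain that responds to 4-hydroxytamoxifen (4-OHT), and sorted for its GFP marker. The fusion protein moves into the nucleus when 4-OHT is added. The 2 libraries at 0 h received no 4-OHT, and the others received 500 nM and were taken 30 min or 1, 2, 6, 12, 15, 18, 21 or 24 h later. There were 10 time points, 20 libraries and thus 2 replicates per time point. RNA bound to chromatin was sequenced, which enriches for transcripts still being made, and reads in introns were counted with those in exons. All libraries are of the same line and the same construct, and B3 cells without the construct are not analysed here, so an effect of 4-OHT itself cannot be told apart from that of the fusion protein. Nothing in the labels says that replicates came from separate cultures, so p-values measure the spread between these libraries, which may be technical. The descriptions of both 0 h libraries can be read as naming a single culture, and every change against 0 h rests on these libraries.

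Ikaros proteins are zinc finger transcription factors of lymphocytes. Zinc fingers in the N-terminal part of Ikaros itself bind DNA at sites with a GGAA or GGGA core. A pair at the C-terminal end of the proteins lets family members bind each other, as homodimers and heterodimers. Ikaros and Aiolos act in B cell development, where Ikaros restrains the growth of pre-B cells, while Helios and Eos are better known from T cells and Pegasus is expressed widely. The question asked of the family here was whether, and when, transcription of its own members changed after the nuclear arrival of IKZF1.

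Libraries held from 33296158 to 46868954 counts, with a median of 40943260. Levels are given as CPM, counts scaled to library size with the TMM factors of edgeR. Changes are log2 fold changes of its quasi-likelihood test, with p adjusted by Benjamini-Hochberg over all 16601 genes. A gene was past the test at an adjusted p under 0.01, and called when it also changed by more than 2-fold. Of 10 markers of pre-B cells, 8 averaged at least 1 CPM, and their sum ran from 7820 to 16080 CPM. Most of the sum at 0 h was Ebf1 (9793 CPM) and Pax5 (1074 CPM). The other markers moved in both directions by 24 h, with log2 fold changes from -7.42 for Igll1 to 4.35 for Blnk. Rag1 and Rag2 were at 0 in all libraries, and both lie within the span of another annotated gene. Summed markers of T cells (5 genes) stayed between 0.259 and 0.757 CPM, of myeloid cells (4 genes) between 0.194 and 1.62 CPM, and of erythroid cells (4 genes) between 0.156 and 0.728 CPM, with no gene of these lists averaging 1 CPM. The T cell marker Cd3e was at 0 in 18 of the 20 libraries and the myeloid marker Itgam in all 20. The replicates at 12 h and 18 h differed from each other more than those of other time points, with a chi-square per degree of freedom of 9.95 and 14.9 against 1.26 to 4.78 elsewhere.

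Because the family arose by duplication, its transcripts were first compared with each other, to see whether reads of one member could be counted for another. The sequences below are, for some of the pairs of members, the longest run of bases that their coding parts have in common, in the annotated spliced transcripts of GRCm38. They are printed as examples of coding sequence that members share. The runs that Ikzf3 shares with Ikzf1 and Ikzf5 lie beside each other in its last exon, in the sequence that codes for the C-terminal zinc fingers. Exon numbers are those of the transcript in which the run was found, and all letters are in lower case, since the whole run is shared.
Ikzf1 (chr11:11769483-11769508, plus strand, exon 9) and Ikzf3 (chr11:98467059-98467084, minus strand, exon 8): gatccctttgagtgtaacatgtgtgg
Ikzf1 (chr11:11769207-11769230, plus strand, exon 9) and Ikzf4 (chr10:128634420-128634443, minus strand, exon 8): gactccacagatacagagagcaac
Ikzf2 (chr1:69539384-69539403, minus strand, exon 8) and Ikzf3 (chr11:98467587-98467606, minus strand, exon 8): atgatggaccaagccatcaa
Ikzf3 (chr11:98467092-98467110, minus strand, exon 8) and Ikzf5 (chr7:131391737-131391755, minus strand, exon 4): tccacatggggtgccatgg
Taking the longest run of each pair, that of 26 bases of Ikzf1 and Ikzf3 was the longest that lay in coding sequence. The longest of any kind was a repeat of 32 bases outside the coding sequence of Ikzf2 and Ikzf4, and the coding run of that pair was not measured. Reads were 75 bases long, and no pair of members had a run of 75 bases in common, nor did any member share one with Esr1, the estrogen receptor gene. Introns, which are part of the counts, were not compared.

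Of the 3 members tested, Ikzf1 and Ikzf4 rose and Ikzf3 fell after 4-OHT. Ikzf4 had 3 counts in each library at 0 h and passed the filter on low counts only through libraries with 4-OHT. Its calls below are therefore no support for a change beyond these few counts. At 30 min none was past the test, while 8.44% of all genes were. At 1 h, Ikzf3 was past it downward, with 17.1% of all genes, and Ikzf4 upward, with 19.2%. From 2 h on, Ikzf1 and Ikzf4 were past it upward and Ikzf3 downward. The share of all genes past it upward was 23.9% at 2 h, 30.0% at 6 h, 31.2% at 12 h, 33.1% at 15 h, 35.3% at 18 h, 35.7% at 21 h and, finally, 35.4% at 24 h. The share past it downward was 23.8% at 2 h, 27.3% at 6 h, 29.5% at 12 h, 32.6% at 15 h, 36.0% at 18 h, 36.0% at 21 h and 36.1% at 24 h. Changes of this kind were therefore common in these libraries. In bulk RNA, fewer cells that transcribe a gene and less RNA per cell cannot be told apart.

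With a change of more than 2-fold also asked for, Ikzf3 was among the 6.91% of genes called downward at 2 h, 9.13% at 6 h, 9.92% at 12 h, 13.1% at 15 h, 17.6% at 18 h, 19.4% at 21 h and 20.1% at 24 h. Over the time course as a whole, 88.0% of genes were past the test, Ikzf1 (adjusted p = 1.30e-16) and Ikzf3 (adjusted p = 1.24e-18) among them, and Ikzf4 (adjusted p = 0.00935) by little. Scaling by library totals alone shifted the median of all genes by -0.12 at 18 h, -0.23 at 21 h and -0.26 at 24 h, and turned 3323 genes called upward and 3329 downward at 24 h into 2603 and 4260. At 18 h it gave 2740 and 3395 against 3164 and 2919, and at 21 h 2655 and 4043 against 3340 and 3213. On that scale, Ikzf1 was at 0.61 and Ikzf3 at -3.29 at 24 h, and none of the 3 members tested changed its direction against 0 h from 1 h on.

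Ikzf1 (ENSMUSG00000018654, chr11:11685003-11772926, plus strand) was the member with by far the most counts. It took between 184254 and 376666 counts of a library, or 0.489% to 0.958% of all counts, and ranked between 2 and 6 among all genes. Its counts may include transcripts of the IKZF1-ERt2 construct as well as those of the Ikzf1 locus, and since exons and introns were counted together, the 2 sources cannot be told apart.

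Ikzf1 stood at 4845 and 4838 CPM at 0 h, at 4990 and 4950 CPM at 30 min and at 4805 and 4742 CPM at 1 h. It then rose to 5523 and 5471 CPM at 2 h, 6933 and 6821 CPM at 6 h, 8435 and 8211 CPM at 12 h and 9436 and 9141 CPM at 15 h. At 18 h it fell to 7287 and 7431 CPM, remained at 7229 and 7770 CPM at 21 h, and stood at 9227 and 8380 CPM at 24 h. All 14 libraries from 2 h onward were above the 6 libraries of the first hour, and the replicates of 15 h and 24 h overlapped, as did those of 24 h and 12 h and those of 18 h and 21 h.

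Against 0 h, the log2 fold change of Ikzf1 was 0.04 at 30 min (SE 0.038, adjusted p = 0.609) and -0.02 at 1 h (adjusted p = 0.706). It was 0.18 at 2 h (adjusted p = 0.000312), 0.51 at 6 h, 0.78 at 12 h and 0.94 at 15 h (SE 0.039, adjusted p = 2.91e-15), the highest point, a 1.92-fold rise. It was 0.60 at 18 h, 0.63 at 21 h and 0.86 at 24 h (adjusted p = 6.55e-15), so that Ikzf1 was past the test at each time from 2 h to 24 h without reaching 2-fold at any.

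Consecutive time points date these changes. Each step from 1 h to 2 h, 2 h to 6 h and 6 h to 12 h was past the test upward, with log2 differences of 0.20, 0.32 and 0.28, when 9.07%, 19.6% and 14.0% of all genes were, while the step from 12 h to 15 h (0.16, adjusted p = 0.00326, with 9.58% of genes) passed it by less and was lost without either 15 h library or without the second 12 h library. The fall between 15 h and 18 h was -0.34 (adjusted p = 6.86e-07, with 16.1% of genes), and it was -0.32 and -0.35 without the one or the other 18 h library, which are the libraries with the widest spread. The step from 18 h to 21 h was 0.03 (adjusted p = 0.692), and the step from 21 h to 24 h was 0.23 (adjusted p = 0.000234, with 4.06% of genes), which was lost without the first library of either time point.

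**Figure D1:**
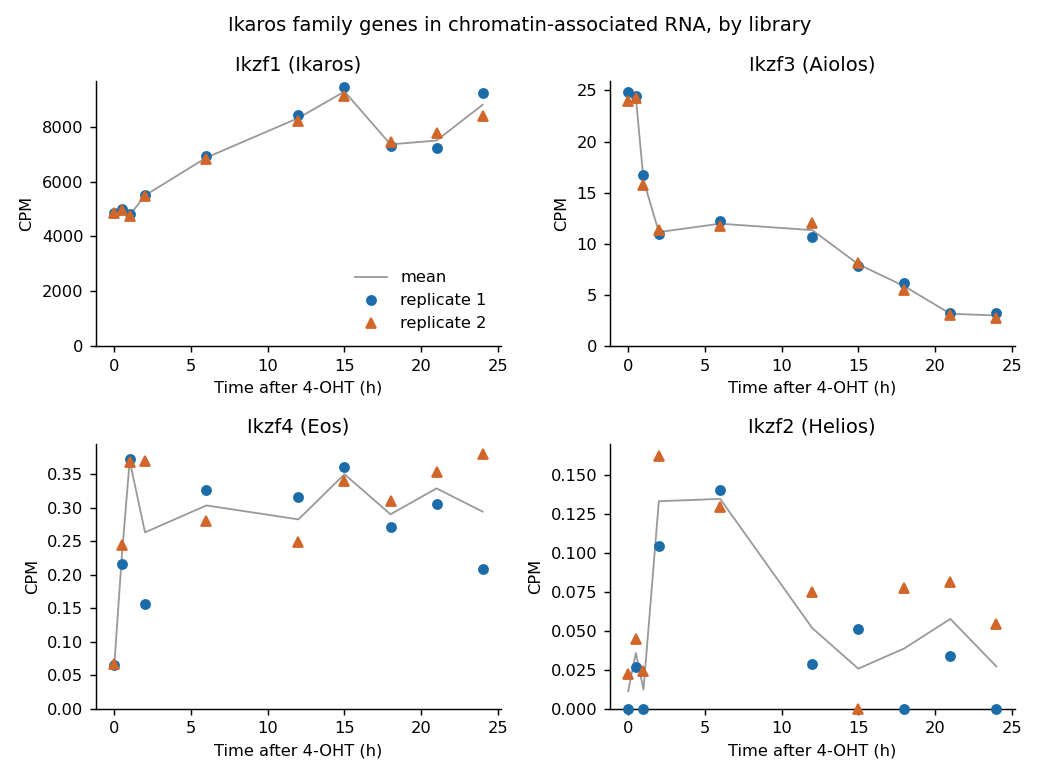
CPM of Ikzf1, Ikzf3, Ikzf4 and Ikzf2 (vertical axes, each from 0) in each library against time after 4-OHT in hours, with circles for replicate 1, triangles for replicate 2 and a grey line through the means. Ikzf1 runs from 4742 to 9436 CPM with a dip at 18 h and 21 h, Ikzf3 falls from 24.8 CPM to 2.80 CPM, first by 2 h and again after 12 h, and Ikzf4 and Ikzf2 stay under 1 CPM throughout.

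Esr1 was examined beside Ikzf1 because the construct holds an estrogen receptor domain. It was also the gene whose pattern was most like that of Ikzf1 among 12055 genes averaging at least 1 CPM, with a Pearson correlation of log2 CPM of 0.986 and a Spearman correlation of 0.974 over the 20 libraries, and 0.985 without the 2 libraries farthest from the median of Ikzf1. These libraries share one time course, so the correlation is a description. Esr1 stood at 535.4 and 529.6 CPM at 0 h, where it ranked 209 among all genes in the first library. It was at 684.8 and 649.1 CPM at 2 h, 842.6 and 810.7 CPM at 6 h and 1199 and 1129 CPM at 15 h, and fell to 978.1 and 1012 CPM at 18 h before reaching 1187 and 1087 CPM at 24 h. As for Ikzf1, the high points were 15 h and 24 h, with 18 h and 21 h lower.

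The log2 fold change of Esr1 was 0.32 at 2 h, 1.13 at 15 h and 1.09 at 24 h (SE 0.045, adjusted p = 1.36e-15). The number of Ikzf1 counts per Esr1 count was 9.05 and 9.14 at 0 h and lay between 7.25 and 8.61 in the 18 libraries with 4-OHT, all of them below both libraries at 0 h. Its mean was 7.74 at 24 h against 9.09 at 0 h, a log2 difference of -0.23. This ratio was given no test. Whether the Esr1 counts come from the construct was not tested.

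**Figure D2:**
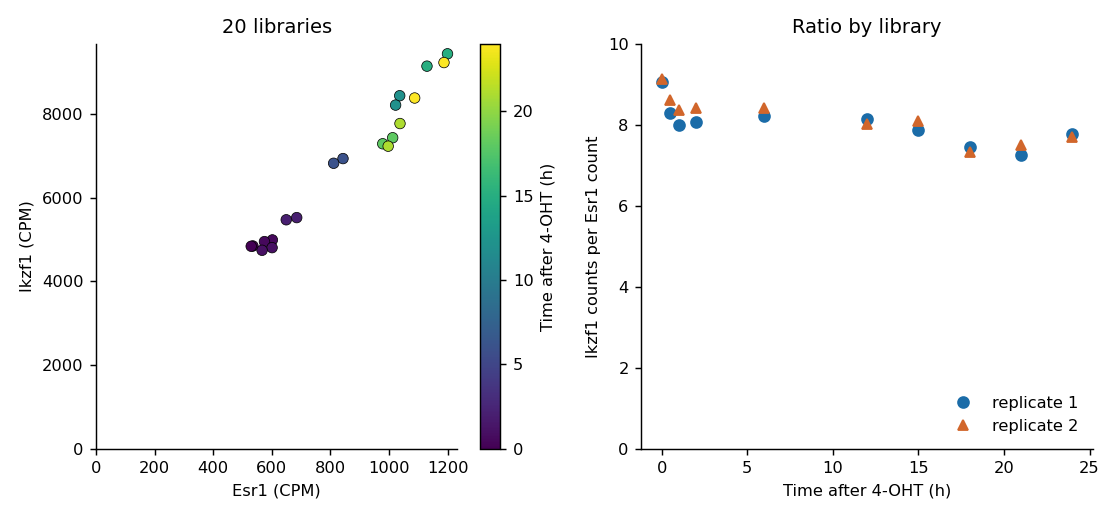
Left, CPM of Ikzf1 (vertical axis) against CPM of Esr1 (horizontal axis) in the 20 libraries, coloured by time after 4-OHT in hours. Right, the number of Ikzf1 counts per Esr1 count in each library against time, with circles for replicate 1 and triangles for replicate 2, where both 0 h libraries (9.05 and 9.14) stand above the other 18.

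Behind Esr1, the genes most like Ikzf1 were Kdm3b, a histone demethylase (r = 0.971, from 191.2 CPM at 0 h to 315 CPM at 24 h), and Zfp512, a zinc finger protein (r = 0.966, from 84.9 to 120.3 CPM). By Spearman correlation, Esr1 was again the first and Kdm3b the third, with Cotl1, an actin-binding protein, the second (0.947).

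Of the sequence around the Ikzf1 gene, the starts of transcription given by RefSeq are shown as a description. The counts that rose may include the construct, and whether Ikaros acts at these starts was not tested. Each line holds 250 bases before to 50 after a start (GRCm38.p6), with GGAA and GGGA, on either strand (so also TTCC and TCCC), in capitals. Where GGGAA or TTCCC occurs, both motifs were counted.
Ikzf1, upstream start (chr11:11685675-11685974, plus strand): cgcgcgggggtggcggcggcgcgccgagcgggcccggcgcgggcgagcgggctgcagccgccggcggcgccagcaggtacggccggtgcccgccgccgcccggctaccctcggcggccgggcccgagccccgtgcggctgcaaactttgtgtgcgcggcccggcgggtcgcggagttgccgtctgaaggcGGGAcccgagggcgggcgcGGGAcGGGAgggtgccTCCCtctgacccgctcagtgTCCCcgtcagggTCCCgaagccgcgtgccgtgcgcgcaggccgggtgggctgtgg
Ikzf1, downstream start (chr11:11689927-11690226, plus strand): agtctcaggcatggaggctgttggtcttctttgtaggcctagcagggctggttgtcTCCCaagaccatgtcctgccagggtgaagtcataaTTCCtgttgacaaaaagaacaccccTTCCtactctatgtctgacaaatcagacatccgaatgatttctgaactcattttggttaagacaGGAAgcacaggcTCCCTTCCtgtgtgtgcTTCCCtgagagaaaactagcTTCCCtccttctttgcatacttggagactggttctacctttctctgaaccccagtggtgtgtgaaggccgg
The upstream window held 6 matches, all of them GGGA, and a G+C content of 81.3%. At least as many matches were found in 68.7% of 32851 promoter windows of this length, and as high a G+C content in 0.654%. The downstream window held 10 matches, 6 of GGAA and 4 of GGGA, a number reached by 25.5% of windows, with 49.0% G+C. A match is only these letters and not a site, and 99.6% of all windows held at least 1.

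Ikzf3 (ENSMUSG00000018168, chr11:98464902-98546031, minus strand), which encodes Aiolos, the closest relative of Ikaros and a factor of later B cells, fell to 12.3% of its starting level by 24 h. It stood at 24.8 and 24.0 CPM at 0 h and at 24.5 and 24.3 CPM at 30 min. At 1 h it was at 16.7 and 15.7 CPM and at 2 h at 11.0 and 11.3 CPM. It then kept this level at 6 h (12.2 and 11.8 CPM) and 12 h (10.6 and 12.0 CPM), with replicates of 6 h and 12 h, and of 12 h and 2 h, overlapping.

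A further fall followed, to 7.88 and 8.13 CPM at 15 h, 6.21 and 5.50 CPM at 18 h, 3.26 and 3.07 CPM at 21 h and 3.19 and 2.80 CPM at 24 h, where the replicates overlapped those of 21 h. Apart from these overlaps and that of 0 h with 30 min, the replicates of neighbouring levels did not overlap.

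The log2 fold change of Ikzf3 against 0 h was -0.00 at 30 min (SE 0.064, adjusted p = 0.999), -0.59 at 1 h (SE 0.066, adjusted p = 1.72e-07) and -1.13 at 2 h (SE 0.069, adjusted p = 7.89e-12). It was -1.03 at 6 h and -1.10 at 12 h, then -1.61 at 15 h, -2.06 at 18 h, -2.95 at 21 h and -3.03 at 24 h (SE 0.088, adjusted p = 3.53e-18), an 8.17-fold fall. Ikzf3 was past the test from 1 h and fell by more than 2-fold at each time from 2 h. At 24 h, 3.17% of the genes tested had fallen further.

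Between consecutive time points, the falls from 30 min to 1 h (-0.59), 1 h to 2 h (-0.54), 12 h to 15 h (-0.51), 15 h to 18 h (-0.45) and 18 h to 21 h (-0.90) were past the test. Of all genes, 15.7%, 13.3%, 10.0%, 16.1% and 5.31% were past it downward in these steps. The steps from 2 h to 6 h (0.10, adjusted p = 0.281), 6 h to 12 h (-0.07, adjusted p = 0.479) and 21 h to 24 h (-0.08, adjusted p = 0.762) were not. Interpolated linearly between the means, Ikzf3 reached 50% of its level at 0 h after 1.79 h (1.75 h and 1.85 h in the replicates taken by number) and 25% after 17.6 h (18 h and 17.4 h). At 12 h it stood at 46.4% and at 24 h at 12.3%.

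The pattern most like that of Ikzf3 over the 20 libraries was that of Kars, a lysyl-tRNA synthetase (r = 0.993), followed by Polr1a, the largest subunit of RNA polymerase I (r = 0.990), and Bcl2, which protects cells from apoptosis (r = 0.990). Kars fell from 36.5 to 15.2 CPM between 0 h and 24 h, Polr1a from 178.1 to 32.7 CPM and Bcl2 from 345.9 to 60.2 CPM. Spearman correlation ranked other genes first, Pdcd11 (0.990), Spag5 and Prpf31 (both 0.985), with Kars at rank 61, so that many genes shared this course nearly as closely.

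Ikzf4 (ENSMUSG00000002578, chr10:128630843-128645991, minus strand), which encodes Eos, was near the limit of detection. It had 3 counts in each library at 0 h, 8 and 11 counts at 30 min, and 18 and 15 counts at 1 h. The libraries of 2 h had 6 and 16 counts, those of 6 h 14 and 13, and those of 12 h 11 and 10. Each library of 15 h had 14 counts and each of 18 h 12, those of 21 h had 9 and 13, and those of 24 h had 7 and 14. All 18 libraries with 4-OHT were above both at 0 h, and apart from 0 h the time points largely overlapped.

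With so few counts at 0 h, the ratio of the summed counts of both libraries, scaled by library totals, is given with an exact binomial 95% interval that covers counting error only. Against the 6 counts at 0 h, it was 3.53 at 30 min (19 counts, 1.36 to 10.8), 5.52 at 1 h (33 counts, 2.28 to 16.1), 4.11 at 2 h (1.62 to 12.4) and 3.77 at 24 h (21 counts, 1.47 to 11.4). edgeR gave an adjusted p of 0.0332 at 30 min and one of 0.000257 at 1 h. Later values were 0.00296 at 2 h and 0.00109 at 24 h, with a log2 fold change between 1.98 and 2.43 at each time from 1 h. Ikzf4 passed the filter on low counts only through libraries with 4-OHT, so its calls are no support for a change beyond these counts. At 24 h, its adjusted p was 0.0555 without the second 24 h library, and at 2 h it was 0.220 without the second 2 h library. No step between consecutive time points was past the test. The genes most like Ikzf4 were March9, a ubiquitin ligase (r = 0.886), G3bp2, a protein of stress granules (r = 0.863), and Rest, a repressor of neuronal genes (r = 0.832).

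Ikzf2 (ENSMUSG00000025997, chr1:69531214-69687245, minus strand), which encodes Helios, had 43 counts in all 20 libraries together. It had 4 and 7 counts at 2 h and 6 and 6 counts at 6 h, and between 0 and 3 counts in each of the other 16 libraries, with 5 libraries at 0. The 4 libraries at 2 h and 6 h were thus above all the others. Against the single count at 0 h, the ratio was 12.3 at 2 h (11 counts, interval 1.79 to 531) and 12.2 at 6 h (12 counts, interval 1.81 to 523). The intervals of all other times included an equal level, as at 12 h (4 counts, 0.479 to 238) and 24 h (2 counts, 0.112 to 127). Because 2 h and 6 h are the times with the most counts, their intervals are no support for a rise. Ikzf2 did not pass the filter. Without the filter, edgeR gave an adjusted p of 0.0272 at 2 h, 0.0222 at 6 h and 0.0712 over the time course, none of which was past the test.

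**Figure D3:**
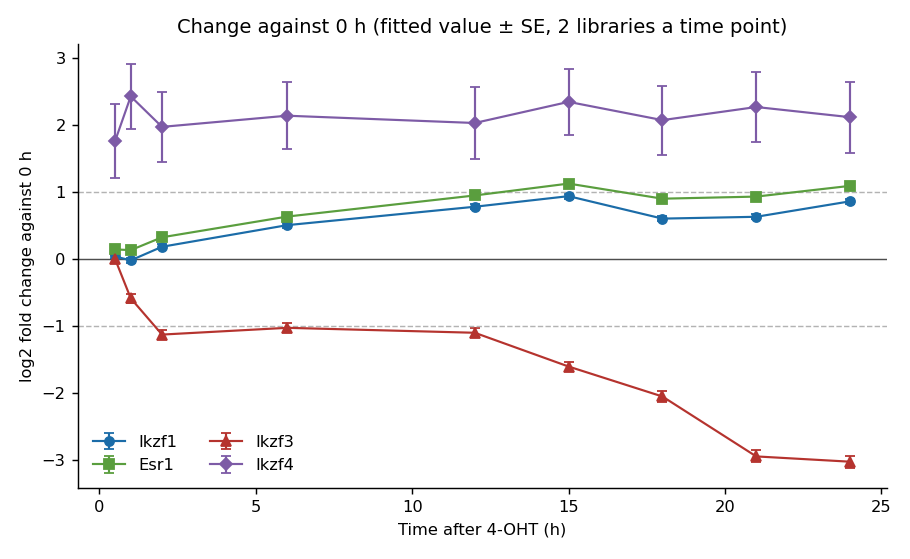
Log2 fold change against 0 h (vertical axis) of Ikzf1, Ikzf3, Ikzf4 and Esr1 at each time after 4-OHT in hours (horizontal axis), as fitted by edgeR with its SE as bars. Dashed lines mark a 2-fold change, which Ikzf3 passes from 2 h and Ikzf1 does not reach, and the bars of Ikzf4 are wide because it had 3 counts in each 0 h library.

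Per length of gene, Ikzf1 outweighed Ikzf2, Ikzf3 and Ikzf4 in all libraries. Counts of Ikzf1 may include the construct, which every library carried. The levels, shares and ratios below can therefore not be read as those of the Ikzf1 locus. Ikzf5, whose level could not be measured, is left out of these sums. The mean level of Ikzf1 was 55.1 CPM per kb of gene at 0 h. Ikzf3 stood at 0.301 CPM per kb, Ikzf4 at 0.00437 CPM per kb and Ikzf2 at 7.22e-05 CPM per kb. Ikzf1 made up 99.44% and 99.46% of the summed levels per kb in the libraries at 0 h and 99.95% and 99.94% in those at 24 h. The level of Ikzf1 per kb was 180.1 and 186 times that of Ikzf3 at 0 h, 465 and 445.3 times at 2 h, and 2668 and 2766 times at 24 h, with no overlap between these time points. With the summed length of exons in place of the gene's span, it was 295.7 and 305.4 times at 0 h and 4382 and 4543 times at 24 h.

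Ikzf5 (ENSMUSG00000040167, chr7:131388652-131410521, minus strand), which encodes Pegasus, had 0 counts in all 20 libraries. In the annotation, it lies wholly within the span of Fgfr2 (chr7:130162451-133123350, minus strand), a growth factor receptor gene whose longest annotated extent covers 2960900 bases. All 68 annotated genes within that span, 29 of them protein-coding and Ikzf5 among them, were at 0 on either strand, while Fgfr2 itself had between 2213 and 4060 counts. Pstk, a kinase of selenocysteine synthesis that overlaps Ikzf5, and the nearest protein-coding genes on its sides, 2310057M21Rik and Acadsb (which starts 80 bases from it), lie in the span too and were at 0.

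The same held across the table. Of 1193 protein-coding genes that lie wholly within another annotated gene, 1186 (99.4%) were at 0 in all libraries, against 2644 of 20783 (12.7%) of those that do not. The share was 99.5% for genes within a gene on the same strand and 99.3% for those within a gene on the other strand. The 0 of Ikzf5 can therefore not be told apart from reads that were assigned to no gene, and its level was not measurable in these counts. The other 4 members do not lie within another gene, and between 86.0% and 99.8% of their bases are free of any other annotated gene.

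**Figure D4:**
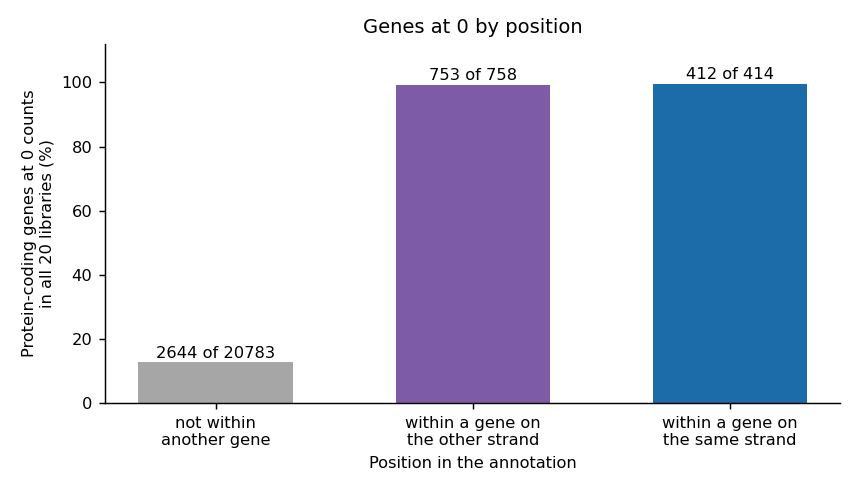
Percent of protein-coding genes with 0 counts in all 20 libraries (vertical axis, from 0) by their position in the annotation, with the number of genes above each bar. Genes that lie within another gene, as Ikzf5 does, are nearly all at 0 on either strand (753 of 758 and 412 of 414), against 2644 of 20783 of the rest.

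Genes beside the members were followed to see whether they moved together with them. Upstream of Ikzf1, the noncoding Gm11999 (chr11:11642203-11685400, minus strand) overlaps the first 398 bases of the Ikzf1 gene on the opposite strand. The strand setting is not given. Protein-coding genes within a gene on the other strand were nearly all at 0 (753 of 758), so reads of this overlap may have been counted for neither gene. It was at 4.24 and 4.77 CPM at 0 h and at 2.82 and 2.85 CPM at 30 min, when Ikzf1 was not past the test. While Ikzf1 rose, the mean of Gm11999 was 2.98 CPM at 2 h, 2.53 CPM at 6 h, 3.36 CPM at 12 h and 2.64 CPM at 15 h. Gm11999 was lower at 21 h (2.00 CPM) and 24 h (1.14 CPM). Its log2 fold change was -0.67 at 30 min (adjusted p = 0.000478), when 4.74% of genes were past the test downward, and -1.98 at 24 h (adjusted p = 7.79e-11). The early fall was lost without the second library at 0 h (adjusted p = 0.0152) or the second at 30 min (adjusted p = 0.0104). Gm12000, antisense within Ikzf1, was at 0.

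On the other side of Ikzf1 lies Fignl1, an ATPase of DNA repair on the minus strand, whose gene ends 14505 bases away. Fignl1 fell from a mean of 62.7 CPM at 0 h to 9.64 CPM at 24 h (-2.70, adjusted p = 1.34e-20). On the side of Gm11999, 4930512M02Rik fell from 1.98 to 1.07 CPM (-0.89, adjusted p = 0.00143), which was no longer past the test without the second 24 h library. At 12 h, 4930512M02Rik was past the test upward (0.75, adjusted p = 0.000804), with 31.2% of all genes. At 24 h, the 3 neighbours of Ikzf1 were past the test downward, as 36.1% of all genes were.

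Next to Ikzf3, the adaptor gene Grb7, 9529 bases away, fell from 3.41 CPM at 0 h to 1.59 CPM at 2 h (-1.10, adjusted p = 2.46e-05). It was at 2.51 CPM at 6 h (-0.435, adjusted p = 0.0241, not past the test) and 1.22 CPM at 24 h (-1.49, adjusted p = 7.97e-07). Its step from 2 h to 6 h was past the test upward (0.67, adjusted p = 0.00777). That from 6 h to 12 h was past it downward (-0.75, adjusted p = 0.0052). Ikzf3 was not past the test in either of these steps. Zpbp2, a sperm protein gene 5066 bases away on the other side, was at 0.42 CPM at 0 h and 0.79 CPM at 24 h, at most 39 counts a library, with a log2 fold change of 0.90 (adjusted p = 0.00658) that was no longer past the test under DESeq2 (adjusted p = 0.0374), under library totals (adjusted p = 0.0442) and without either 0 h library or the first 24 h library.

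Next to Ikzf4, the ribosomal protein gene Rps26 was at 16.9 CPM at 0 h and 16.8 CPM at 24 h (-0.02, adjusted p = 0.895), with a fall past the test at 2 h (-0.42, adjusted p = 0.0015). Suox, sulfite oxidase, 23903 bases from it, rose from 0.64 to 2.86 CPM (2.15, adjusted p = 2.19e-09). Erbb4 and Spag16, on the sides of Ikzf2, were at 0.41 (adjusted p = 0.319) and -0.00 (adjusted p = 0.988) on the log2 scale at 24 h, but Erbb4, with at most 33 counts a library, was past the test upward at 6 h (1.12, adjusted p = 0.00374). Of the other genes that overlap a member, Gm29114, antisense to Ikzf2, had at most 3 counts a library, and Gm29112, Gm28112, Gm25106, Gm26876, Gm44624 and Gm44625 were at 0. Fgfr2, which spans Ikzf5, rose from 63.2 to 105.7 CPM (0.74, adjusted p = 2.5e-11).

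**Figure D5:**
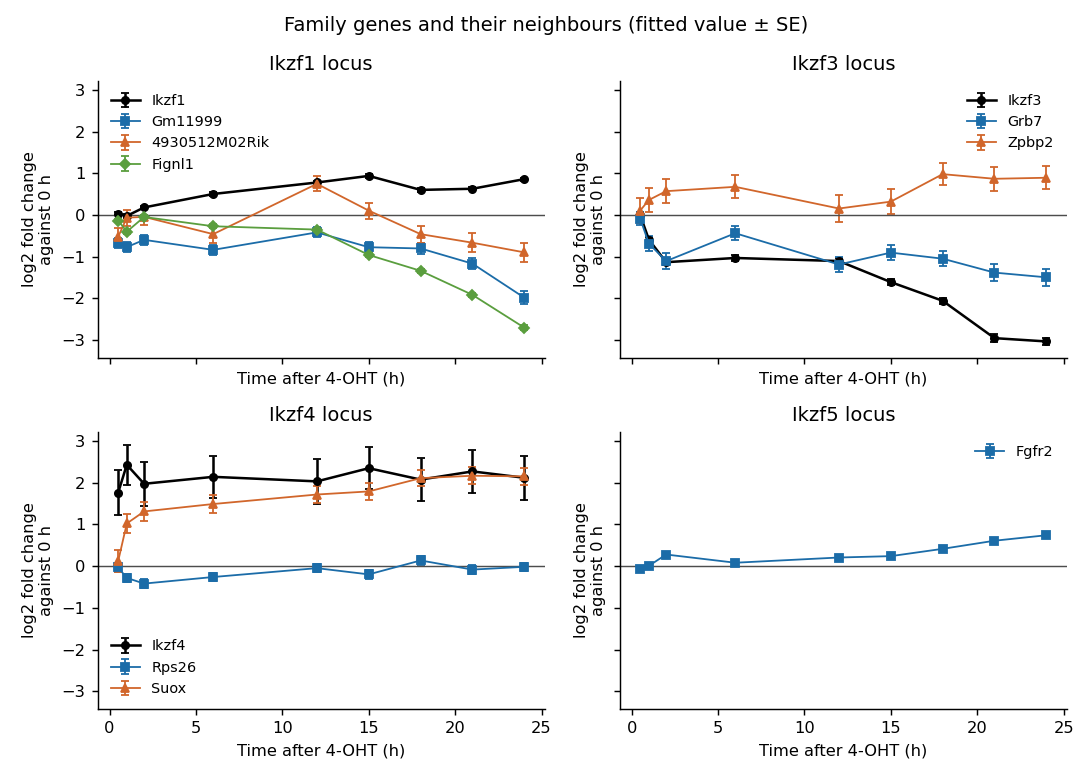
Log2 fold change against 0 h (vertical axes, fitted value with SE as bars) at each time after 4-OHT in hours (horizontal axes) for Ikzf1, Ikzf3 and Ikzf4 in black and for the tested genes beside them in colour, with Fgfr2 alone for Ikzf5. The neighbours of Ikzf1 lie below 0 at 24 h (-0.89 to -2.70) with Ikzf1 above it (0.86), and Suox lies above 0 beside Ikzf4 (2.15).

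Proteins that work with the family were described next. Ikaros proteins recruit corepressors, among them the NuRD complex, which joins nucleosome remodelling with histone deacetylation, Sin3 and CtBP. Of 18 genes of these complexes, 17 were tested, and Ctbp2 was at 0 in all libraries and lies for the most part within the span of Fgfr2. At 2 h, 4 were past the test upward and 3 downward (17 tested, against 23.9% and 23.8% of all genes), with a median log2 fold change of 0.07 beside 0.03 for all genes. At 24 h, 4 were past it upward and 9 downward (against 35.4% and 36.1% of all genes), with a median of -0.21 beside -0.01.

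Mbd2, the methyl-DNA-binding subunit of NuRD, had the largest rise, from 176.5 CPM at 0 h to 550.7 CPM at 2 h (1.64, adjusted p = 2.52e-18) and 1045 CPM at 24 h (2.57). Mta3, another NuRD subunit, rose from 81.1 to 258 CPM at 24 h (1.67, adjusted p = 1.01e-18). The histone-binding Rbbp7 fell from 112.2 to 34.8 CPM (-1.69, adjusted p = 2.3e-17) and Cdk2ap1 from 14.9 to 4.73 CPM (-1.66, adjusted p = 5.44e-13). Members of the complex thus changed in both directions.

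The study names casein kinase 2, protein phosphatase 1 and the PIAS proteins of the SUMO pathway as enzymes that modify IKZF1. Genes of the cereblon ubiquitin ligase, whose action on Ikaros proteins in these cells was not tested, were listed with those of these enzymes. Of these 15 genes, 3 were past the test upward and 6 downward at 2 h (against 23.9% and 23.8% of all genes), and 6 upward and 7 downward at 24 h (against 35.4% and 36.1%), with medians of -0.03 and -0.11. At 24 h, the largest rises were those of Pias2 (from 257.3 to 588.9 CPM, 1.19, adjusted p = 5.93e-18) and Pias1 (0.75), and the largest falls those of the phosphatase subunit Ppp1cc (from 96.2 to 51.0 CPM, -0.92, adjusted p = 9.63e-13) and the kinase subunit Csnk2a2 (-0.63).

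Of 5 genes known as Ikaros targets, all were past the test downward at 2 h, with 23.8% of all genes, and at 24 h, with 36.1%, with medians of -2.41 and -4.55. The study of these same libraries reports all 5 as fast-repressed genes, so their falls are a description and no independent support. The surrogate light chain genes Igll1 and Vpreb1 were at -4.07 and -2.41 at 2 h and at -7.42 and -5.56 at 24 h. The cell cycle gene Ccnd2 was at -2.99 and -4.55 and the growth regulator Myc at -1.21 and -3.67 at these times. Dntt, the terminal transferase of V(D)J joining, was at -2.32 at 2 h and at -0.67 at 24 h. Beside them, Ikzf3 was at -1.13 and -3.03.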

How the data were processed

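Reads of 75 bases were aligned by the authors to mm10 (GRCm38) with STAR in nf-core/rnaseq 1.3 and counted with featureCounts, which was set to include introns. The deposited values are raw counts per gene without normalization. CASAVA 2.17 is named in the submitters' processing notes. The annotation release, the strand setting and the handling of shared reads are not given in the sources used here. Directional libraries were made after depletion of rRNA.

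The 5 genes and all lists were chosen with earlier results of these data known. All 20 libraries were fitted in edgeR 4.0.16 (TMM, quasi-likelihood, time point as a factor, no replicate block) in R 4.3.3, with Benjamini-Hochberg adjustment. A gene needed 10 or more counts in 2 or more libraries (16601 genes). The thresholds, an adjusted p under 0.01 and a fold change above 2, are those of the study. SE was taken as the log2 fold change divided by the square root of F. Correlations used log2 CPM with a prior count of 2. DESeq2 1.42.0 gave an alternative test, and the other alternatives were other scalings and filters, the replicate block, an adjusted p under 0.05, models of 4 libraries and leaving out each library.

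Named were the 5 members, Esr1, every gene that overlaps a member, the nearest protein-coding gene on each side, the 3 genes of at least 1 CPM most correlated with each member tested, the 2 largest rises and falls at 24 h past the test in each list of 10 or more genes, and all 5 targets. Cotl1, Pdcd11, Spag5 and Prpf31 came from the Spearman alternative. Positions came from GENCODE M21 (GRCm38), which holds 55240 of 56239 identifiers, and promoters from RefSeq, which gave those of 2 members. A further sequence that members share is not reported here. Intervals cover counting error only.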

Additional observations from a re-analysis of the deposited data

How the results depend on the processing

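Ikzf3 kept its direction and its side of the threshold under every alternative at each time from 1 h against 0 h, and at 30 min its change, near 0, was 0.0066 under library totals and ran from -0.026 to 0.022 when a library was left out. The steps of Ikzf3 from 6 h to 12 h (-0.17 to 0.0090) and from 21 h to 24 h (-0.17 to 0.017) also changed sign without a library, and neither was past the test. Ikzf1 kept its side of the test against 0 h, except that a model of 4 libraries put 1 h past the test (-0.040, adjusted p = 0.00762).

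Between time points, the rise of Ikzf1 from 12 h to 15 h was 0.11 and not past the test under library totals (adjusted p = 0.0385) and ran from 0.14 to 0.18 without a library, that from 18 h to 21 h was -0.080 under library totals and ran from -0.025 to 0.079, and that from 21 h to 24 h ran from 0.16 to 0.30. The cause was not tested.

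Calls of Ikzf4 were the least stable. At 30 min its change of 1.76 passed at an adjusted p under 0.05. Under DESeq2 it was no longer past the test at 2 h (2.02) and 12 h (2.07). Leaving out a library gave 1.21 to 2.43 at 2 h, 1.87 to 2.21 at 12 h and 1.62 to 2.47 at 24 h, with calls lost at each. Over the time course its adjusted p was 0.0120 under library totals, 0.0931 under DESeq2 and from 0.00264 to 0.110 without a library, and in 16 of 20 such fits it was no longer past the test. Its steps changed sign without a library from 2 h to 6 h (-0.29 to 0.94), 6 h to 12 h (-0.28 to 0.063) and 21 h to 24 h (-0.66 to 0.19). It could not be tested with at least 10 counts in every library.

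With a replicate block, the adjusted p of Ikzf4 over the time course was 0.0102, just over the threshold of 0.01 and thus no longer past the test, and no other member changed its side of the test. The numbers showed no pairing common to all time points. Over 9105 genes, the deviations of same-numbered libraries correlated at 0.0255 on average over 45 pairs of time points. Single pairs ran from -0.65 to 0.427, so the mean cannot tell whether libraries of some time points are paired.

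A filter of at least 10 counts in every library left fewer genes, with 251 called upward at 1 h, 629 at 2 h, 1047 at 6 h, 1364 at 12 h, 1599 at 15 h, 2039 at 18 h and 2210 at 21 h, and with 501 called downward at 1 h, 754 at 2 h, 882 at 6 h, 1015 at 12 h and 1375 at 15 h. At an adjusted p under 0.05, 25 genes were called upward at 30 min, against 9. By summed exon length, Ikzf1 stood at 300.5 times Ikzf3 at 0 h and 4457 times at 24 h. Spag16 at 24 h was 0.011 with DESeq2 size factors, 0.011 under DESeq2, 0.0050 under the filter in every library, 0.0046 in a model of 4 libraries and -0.025 to 0.019 without a library, and Rps26 was -0.27 under library totals and ran from -0.083 to 0.048 without a library. The counts of list genes stayed within 1.5 times under the other scalings and filters, the replicate block, DESeq2 and an adjusted p under 0.05. They were not taken in the models of 4 libraries or without a library.

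Depth limits Ikzf2 and Ikzf4, with at most 7 and 18 counts a library, and the 2 replicates a time point limit every test. All values are per gene, so that transcripts of the construct, of the Ikzf1 locus and of introns are summed.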
